A study of Mus musculus with 31 samples.

Results

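Homeostatic microglia genes are a set of 9 genes, P2ry12, P2ry13, Gpr34, Cx3cr1, Csf1r, Siglech, Tmem119, Slco2b1 and Olfml3, whose transcripts mark microglia of the healthy brain. They were chosen by name and were read from 48795 genes counted in hippocampi and 54532 genes counted in cultured microglia. In P301S hippocampi, where general microglia and macrophage transcripts were higher, none of the 9 genes passed the test, and Cx3cr1, Csf1r and Slco2b1 had the highest values relative to the non-transgenic mice. In microglia given vehicle, levels of all 8 genes that could be tested were lower in Cgas-/- than in Cgas+/+ cells. Of all genes tested there, 27.3% were called lower, as were 7 of 12 general microglia and macrophage genes, with 2 higher. The calls of P2ry13 and Gpr34 were lost when certain single libraries were left out. Tau fibrils and foreign DNA moved the genes in different directions within the set.

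Microglia are the resident macrophages of the brain, and they carry receptors that sense nucleotides, chemokines and growth factors. P2Y12 and P2Y13 respond to extracellular ADP, CX3CR1 responds to neuronal fractalkine, and CSF1R carries the survival signal of CSF1 and IL-34. Transcripts of many of these genes are known to fall when microglia are taken into culture or become activated, which is why the set is used as a sign of the resting state.

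The study asked how the DNA sensor cGAS, which makes the messenger cGAMP and so switches on STING and interferon, takes part in tau disease. Hippocampi came from 7 non-transgenic (Ntg) mice, of which 4 were male, and from 6 P301S animals, of which 3 were male, of the PS19 line, which expresses human tau with the P301S mutation from the mouse prion promoter. The labels give an age of 8 to 9 months, the study's methods give a slightly older age, and the Cgas genotype of these mice is not given in the sources used here. Primary microglia were shaken off mixed glial cultures of cortices of pups at postnatal day 1 to 3, grown with GM-CSF at 1 ng/ml, and came from Cgas+/+ or Cgas-/- mice. Cells of each genotype received vehicle, tau fibrils at 2 µg/ml or herring testis DNA (HT-DNA) at 1 µg/ml, and RNA was taken after 6 h, with 3 libraries in each of the 6 groups. The study's figure legends call the 3 samples of a microglial group biologically independent, while pooling of pups and the sex of the cultures are not given in the sources used here. The p-values in microglia thus rest on the spread between such libraries within groups, estimated over all 6 groups together. The genotypes were grown as separate cultures, so Cgas genotype and culture cannot be told apart.

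Libraries held 25953296 to 35779977 counts in hippocampi and 17037459 to 25174764 counts in microglia. Values are CPM, counts scaled to a common library size by TMM, and log2 fold changes, adjusted p-values and standard errors come from edgeR's quasi-likelihood test with Benjamini-Hochberg adjustment over all genes tested, 16453 in hippocampi and 13675 in microglia. The P301S label was checked with Mapt, whose level was 572 ± 46.9 CPM in Ntg (SD, n = 7) against 997 ± 88.5 CPM in the transgenic animals (SD, n = 6). Cgas, the targeted gene, was at 18.8 to 44.3 CPM in the 9 Cgas+/+ libraries and at 3.76 to 7.45 CPM in the 9 Cgas-/- libraries, with no overlap. Transcript lengths were not used, and levels are compared between groups and never between genes.

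P2ry13 was raised by HT-DNA in Cgas+/+ cells, and Slco2b1 was the member with the greatest difference between Cgas genotypes. Sequences just upstream of the annotated start sites are shown for these members. They are the 250 bases before the start in RefSeq (GRCm38.p6), written 5′ to 3′ on the gene's own strand, and capitals mark a match to GAGGAA, the core letters bound by PU.1, the factor that specifies macrophages.
P2ry13 (chr3:59210883-59211132, minus strand): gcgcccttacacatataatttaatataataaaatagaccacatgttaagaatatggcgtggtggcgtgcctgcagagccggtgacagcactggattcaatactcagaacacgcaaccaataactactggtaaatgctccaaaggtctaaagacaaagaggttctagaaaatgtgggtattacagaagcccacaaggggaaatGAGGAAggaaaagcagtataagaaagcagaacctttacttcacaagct
Slco2b1, start site 1 (chr7:99711341-99711590, minus strand): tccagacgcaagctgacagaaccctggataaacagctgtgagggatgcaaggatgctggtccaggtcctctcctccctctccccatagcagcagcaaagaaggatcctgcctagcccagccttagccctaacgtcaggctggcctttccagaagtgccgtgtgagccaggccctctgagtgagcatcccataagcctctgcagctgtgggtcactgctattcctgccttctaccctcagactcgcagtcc
Slco2b1, start site 3 (chr7:99695810-99696059, minus strand): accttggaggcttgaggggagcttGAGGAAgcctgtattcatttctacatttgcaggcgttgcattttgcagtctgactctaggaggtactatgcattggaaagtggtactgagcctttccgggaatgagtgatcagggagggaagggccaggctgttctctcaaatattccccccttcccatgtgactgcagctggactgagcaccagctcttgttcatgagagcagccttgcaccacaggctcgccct

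The match lay 48 bases before the start in P2ry13 and 226 bases before start site 3 in Slco2b1, and none of the 5 motifs was found at start site 1. Both strands were searched for GAGGAA, for TGANTCA (AP-1), for TGACGTCA (the cAMP response element), and for an interferon response motif and a MEF2 motif that hold spaced letters and are given by name. Among 32851 mouse promoter windows of the same length, GAGGAA was present in 23.3%, TGANTCA in 6.75%, the interferon response motif in 2.98%, the MEF2 motif in 3.2% and TGACGTCA in 1.55%. The windows of P2ry12, Cx3cr1 and Slco2b1 start site 2 lie in annotated UTRs and are not printed. The Cx3cr1 window held 1 match, to the MEF2 motif, 67 bases before the start, and none was found for P2ry12, Siglech or Olfml3.

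In hippocampi the nucleotide-sensing and lipid-sensing receptors P2ry12, P2ry13 and Gpr34 did not pass the test. P2ry12 (ENSMUSG00000036353, GRCm38 chr3:59216272-59262871, minus strand), the ADP receptor that steers microglial processes, ranged from 31.2 to 47.3 CPM in Ntg mice (median 40.9) and from 26.7 to 48.6 CPM in P301S mice (median 33.2). The ranges overlapped, 1 P301S mouse lay above every Ntg mouse, and the log2 difference was -0.15 (95% interval -0.46 to 0.16, adjusted p = 0.687). P2ry12 lies within Med12l, a Mediator subunit gene on the opposite strand that was at 30.1 to 50.5 CPM in these hippocampi and also overlaps P2ry13. The log2 difference of Med12l was -0.17 (adjusted p = 0.56 in edgeR's quasi-likelihood test). The strand setting of the counting is not given in the sources used here, and the part of Med12l reads in the hippocampal values was not tested.

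P2ry13 (ENSMUSG00000036362, chr3:59207892-59210882, minus strand), a second ADP receptor, ranged from 14.2 to 19 CPM in Ntg mice (median 15.8) and from 10.9 to 27.5 CPM in P301S mice (median 18.7), with a log2 difference of 0.19 (95% interval -0.17 to 0.54, adjusted p = 0.652). Gpr34 (ENSMUSG00000040229, chrX:13632089-13640858, plus strand), a receptor for lysophosphatidylserine, ranged from 9.74 to 12.3 CPM in Ntg mice (median 10.8) and from 6.52 to 20.9 CPM in P301S mice (median 12.9), with a log2 difference of 0.32 (95% interval -0.14 to 0.78, adjusted p = 0.518). For both genes the P301S mice spread on either side of the Ntg range, and 3 of 6 P301S mice were above every Ntg mouse for Gpr34 and 2 of 6 for P2ry13.

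Cx3cr1 and Csf1r were higher in most P301S mice, but neither passed the test over all genes. Cx3cr1 (ENSMUSG00000052336, chr9:119901616-120069879, minus strand), the fractalkine receptor, was at 129, 129, 53.7, 59.1, 121 and 82.3 CPM in P301S mice 29, 36, 43, 63, 65 and 77. In Ntg mice it ranged from 51.9 to 69.7 CPM with a median of 60.6. Mice 29, 36, 65 and 77 were above every Ntg mouse, mice 43 and 63 were within the Ntg range, and the log2 difference was 0.65 ± 0.19 (SE, adjusted p = 0.0995).

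Csf1r, the receptor on which microglial survival depends, was at 202, 208, 97.4, 99.6, 181 and 134 CPM in the same P301S mice. In Ntg mice it ranged from 91.2 to 117 CPM with a median of 105. The same 4 mice were above every Ntg mouse and the same pair was within the Ntg range, and the log2 difference was 0.57 ± 0.17 (SE, adjusted p = 0.102).

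Slco2b1 (ENSMUSG00000030737, chr7:99657804-99711340, minus strand), an organic anion transporter, was at 36.7, 35.2, 21.1, 20.4, 37.1 and 27.7 CPM in P301S mice 29, 36, 43, 63, 65 and 77. In Ntg mice it ranged from 18.9 to 24.9 CPM with a median of 22.1. It showed the split of Cx3cr1 and Csf1r, with mice 43 and 63 in the Ntg range, and the log2 difference was 0.44 ± 0.15 (SE, adjusted p = 0.144).

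Siglech, Tmem119 and Olfml3 had widely overlapping levels in both genotypes. Siglech (ENSMUSG00000051504, chr7:55768178-55778925, plus strand), a sialic acid-binding lectin, ranged from 13.1 to 17.7 CPM in Ntg mice (median 14) and from 8.94 to 24 CPM in P301S mice (median 14.1), with a log2 difference of 0.04 (95% interval -0.35 to 0.43, adjusted p = 0.948). Tmem119 (ENSMUSG00000054675, chr5:113793729-113800516, minus strand), a membrane protein used as a microglial marker, ranged from 27.2 to 33.8 CPM in Ntg mice (median 27.6) and from 18.1 to 38.9 CPM in P301S mice (median 28.2), with a log2 difference of -0.06 (95% interval -0.35 to 0.23, adjusted p = 0.89). Olfml3 (ENSMUSG00000027848, chr3:103722222-103738001, minus strand), a secreted olfactomedin-domain protein, ranged from 12.2 to 30 CPM in Ntg mice (median 19) and from 11.7 to 40.3 CPM in P301S mice (median 21.1), with a log2 difference of 0.25 (95% interval -0.34 to 0.84, adjusted p = 0.738). In each case the P301S values reached below and above those of Ntg mice, and mouse 65 was the highest of the P301S mice.

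**Figure D1:**
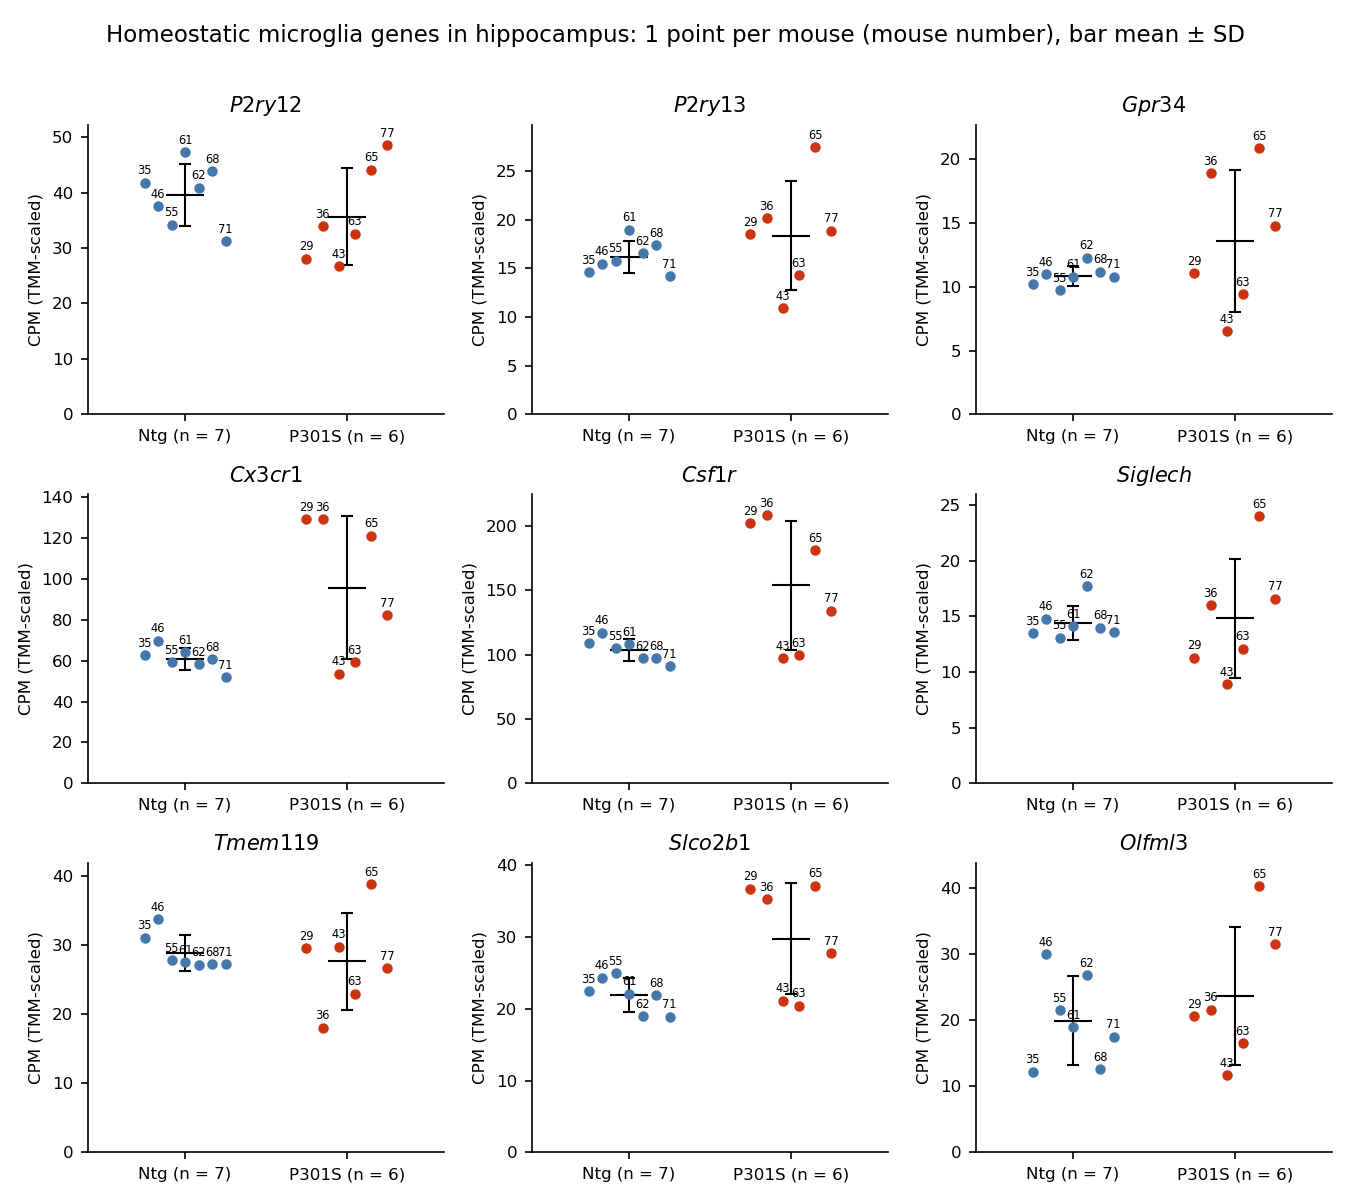
CPM of each of the 9 genes in the 7 Ntg and 6 P301S hippocampi, 1 point per mouse, with the mean and SD of each group. Mice 43 and 63 lie in the Ntg range for Cx3cr1, Csf1r and Slco2b1, while the other 4 P301S mice lie above it.

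Across the set, 0 of 9 genes passed the test, beside 1.51% of all genes tested (1.39% higher and 0.122% lower, or 1.32% and 0.0365% with a log2 difference beyond 0.5 as well). Before adjustment 3 of the 9 genes were under 0.05. The unadjusted values in edgeR's quasi-likelihood test were 0.00448 for Cx3cr1, 0.00476 for Csf1r and 0.00942 for Slco2b1. DESeq2 called Cx3cr1 (adjusted p = 0.0302) and Csf1r (adjusted p = 0.0354). The median log2 difference of the 9 genes was 0.25, beside 0 over all genes, and 7 of the 9 values were above 0. All 9 genes overlapped between the groups, beside 0.438% of all genes lying wholly higher and 0.170% wholly lower in P301S. The 3 genes with the highest log2 differences turned on mice 43 and 63. Without mouse 43, Cx3cr1 (0.77, adjusted p = 0.0152), Csf1r (0.67, adjusted p = 0.0206) and Slco2b1 (0.52, adjusted p = 0.0418) passed edgeR's quasi-likelihood test, and without mouse 63 they also passed (adjusted p = 0.0305, 0.0297 and 0.0414). Sex by genotype was not called for any of the 9 genes, at log2 differences between -0.41 and 0.16, nor for any of the genes tested.

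General microglia and macrophage transcripts were higher in the same mice. The mean log2(CPM + 0.5) of 12 such genes, among them Aif1, Ptprc and C1qa, was 3.77 ± 0.09 in Ntg (SD, n = 7) against 5.01 ± 0.95 in the transgenic animals (SD, n = 6), a difference of 1.24 (exact two-sided permutation p = 0.00291, and the smallest possible was 0.000583). The 12 genes were listed with earlier results of these data known, so this p-value is not independent of those results. Mice 29, 36, 65 and 77 were at 5.8, 5.78, 5.88 and 4.8, mouse 63 at 4.01 and mouse 43 at 3.78, inside the Ntg range of 3.64 to 3.91. In bulk tissue, fewer or more cells of a type and less or more RNA per cell cannot be told apart.

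The 9 genes were then set against that mean, which itself rose by 1.24, so that a gene with no change of its own lies below 0 on this scale. The median over all 16453 genes tested was -1.24, and 8.73% of them had all P301S mice below every Ntg mouse. The difference in log2 of gene over mean was -1.41 for P2ry12, -1.33 for Tmem119, -1.26 for Siglech, -1.10 for P2ry13, -1.04 for Olfml3, -1.03 for Gpr34, -0.84 for Slco2b1, -0.73 for Csf1r and -0.67 for Cx3cr1. All 6 P301S mice were below every Ntg mouse for P2ry12, P2ry13, Cx3cr1, Gpr34 and Siglech, 5 of 6 for Tmem119, Slco2b1 and Csf1r, and 4 of 6 for Olfml3. P2ry12, Tmem119 and Siglech lay below the median of all genes and the other 6 members above it. With the mean as a covariate, the log2 differences ranged from -0.45 for Siglech to -0.12 for Slco2b1, with unadjusted p = 0.0342 for P2ry13 (-0.38) and 0.0418 for Cx3cr1 (-0.19), while adjusted p was 1 for all 9 genes in edgeR's quasi-likelihood test. Genotype and the mean moved together in these mice and cannot be told apart fully by this fit.

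**Figure D2:**
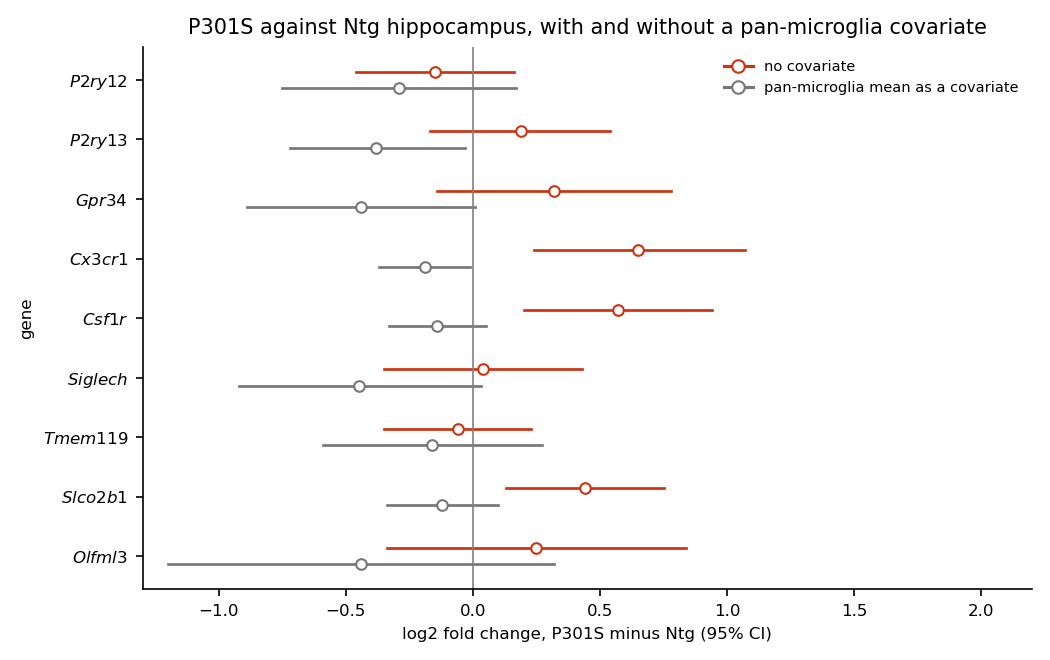
Log2 difference between P301S and Ntg hippocampi of each of the 9 genes, without a covariate and with the mean of the 12 microglia and macrophage genes as a covariate, with 95% intervals. With the covariate the differences range from -0.45 to -0.12 and none is called, against -0.15 to 0.65 without it. With the covariate only the intervals of P2ry13 (-0.72 to -0.03) and Cx3cr1 (-0.37 to -0.01) leave out 0. The share of all genes below 0 in this fit was not counted.

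Reads per 100 reads of Csf1r gave a second scale on which members were compared within a library. Csf1r itself had a log2 difference of 0.57 (not called), so a gene with no change of its own falls on this scale. The share of all genes that did so was not counted. P2ry12 had a median of 38.3 per 100 Csf1r reads in Ntg mice (32 to 45.2) and 25.9 in P301S mice (13.9 to 36.3). Tmem119 was at 28.1 (25.5 to 30) and 20.7 (8.71 to 30.6), and Siglech at 13 (12.4 to 18.1) and 10.7 (5.6 to 13.3). P2ry13 was at 13.3 to 18 per 100 Csf1r reads in Ntg and at 9.13 to 15.2 in P301S mice. Cx3cr1 was at 59 (56.5 to 62.4) and 61.6 (55.2 to 67.1), and its levels had r = 0.994 with those of Csf1r over the 13 libraries. The ranges of the genotypes overlapped for all 8 genes on this scale. The lowest P301S mouse was below the lowest Ntg mouse for each. It was at 5.48 against 9.29 for Gpr34, 16.9 against 19.5 for Slco2b1, 10.2 against 11.2 for Olfml3 and 55.2 against 56.5 for Cx3cr1. The highest P301S mouse was above the highest Ntg mouse for Cx3cr1 (67.1 against 62.4) and Tmem119 (30.6 against 30), and below it for the other genes.

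The other genes of the lists around the set divided in a like way. Of 20 other homeostatic genes, 2 were higher and 0 lower in P301S hippocampi (median log2 difference 0.21), namely Lag3 (2.74, adjusted p = 0.0155), an inhibitory receptor, and Ctss (1.69, adjusted p = 0.0303), a lysosomal protease. Of the 12 general microglia and macrophage genes, 8 were higher (median 1.77), led by the adaptor Tyrobp (2.0) and the complement gene C1qa (1.94). Of 14 genes of disease-associated microglia, 5 were higher (median 1.41), led by Itgax (6.12), Cst7 (5.90) and Clec7a (5.62).

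Of 8 ligands and growth factor receptors around CSF1R and CX3CR1, 2 were higher, Csf2rb (1.61) and Csf3r (1.35), with a median of 0.58. Of 15 purinergic receptors and nucleotide enzymes, 2 were higher, the adenosine receptor Adora3 (1.15) and the ATP-gated channel P2rx4 (0.70), with a median of 0.31. Of 13 microglial transcription factors, Irf8 was higher (1.56) and Smad3 lower (-0.42), with a median of 0.24, and of 15 TGF-beta pathway genes only Smad3 passed the test (median -0.08). Among markers of other cells, the 8 astrocyte genes summed to 4730 to 5550 CPM in Ntg and 5000 to 8770 CPM in P301S mice, with Gfap higher (2.22, adjusted p = 0.0206), and 0 genes passed of 7 oligodendrocyte, 5 oligodendrocyte precursor, 7 neuron, 5 fibroblast and 4 endothelial genes. Of 10 monocyte and border macrophage genes 3 had enough counts to be tested, and of 6 T cell genes 1, and none of these passed. The part of these cells in the values of the 9 genes was not tested.

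In cultured microglia 8 of the 9 genes could be tested. Siglech had 0 counts in 10 of 18 libraries, 3 or fewer in 15 and at most 5 in any library, a level at which 3 counts stand for 0.117 to 0.167 CPM, so no difference was detectable at this depth. Of 20 other homeostatic genes, Crybb1 and Upk1b were also at 3 counts or fewer in each library of every group, and Adgrg1 in each Cgas-/- library, while the 12 general microglia and macrophage genes summed to 9030 to 12700 CPM.

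P2ry12 and P2ry13 rose with HT-DNA in Cgas+/+ microglia and not in Cgas-/- microglia. P2ry12 was at 9.17, 8.7 and 10.3 CPM in Cgas+/+ cells with vehicle, 8.62, 8.84 and 9.49 with tau, and 18.3, 19.1 and 18.7 with HT-DNA. In Cgas-/- cells it was at 7.87, 5.89 and 5.06 CPM with vehicle, 5.95, 4.86 and 5.83 with tau, and 4.88, 4.57 and 4.85 with HT-DNA. The HT-DNA libraries of Cgas+/+ cells stood above all others, those with vehicle and tau overlapped, and so did the Cgas-/- libraries with vehicle and tau and those with tau and HT-DNA.

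HT-DNA raised P2ry12 by 1.0 ± 0.11 on the log2 scale in Cgas+/+ cells (SE, adjusted p = 2.70e-08), against -0.38 ± 0.14 in Cgas-/- cells (adjusted p = 0.22), and the interaction of HT-DNA with genotype was -1.38 (adjusted p = 5.03e-07). With tau the difference was -0.06 in Cgas+/+ cells (95% interval -0.31 to 0.19, adjusted p = 0.778) and -0.16 in Cgas-/- cells (95% interval -0.44 to 0.11, adjusted p = 0.492). Cgas-/- cells had less P2ry12 than Cgas+/+ cells with vehicle (-0.59, adjusted p = 0.000322), tau (-0.69, adjusted p = 4.71e-05) and HT-DNA (-1.97, adjusted p = 5.20e-14).

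P2ry13 was at 19.6, 16.9 and 20.2 CPM in Cgas+/+ cells with vehicle, 23.6, 22.2 and 26 with tau, and 39.5, 36 and 37.1 with HT-DNA. Without Cgas it was at 14.3, 16.8 and 14.7 CPM with vehicle, 15.7, 13.4 and 16 with tau, and 13.5, 10.4 and 10 with HT-DNA. The Cgas+/+ groups were ordered HT-DNA, tau and vehicle without overlap, and the 3 Cgas-/- groups lay below them with overlap between vehicle and tau and between tau and HT-DNA.

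HT-DNA raised P2ry13 by 0.99 ± 0.09 (SE, adjusted p = 6.48e-10) and tau by 0.34 ± 0.10 (SE, adjusted p = 0.00771) in Cgas+/+ cells. The tau call was lost without Cgas+/+ vehicle library 2 (0.27, adjusted p = 0.064) and without Cgas+/+ tau library 3 (0.28, adjusted p = 0.0647). Without Cgas, P2ry13 fell by 0.45 with HT-DNA (adjusted p = 0.0301), a call lost when any of 5 libraries was left out: Cgas-/- vehicle 1, 2 or 3 (adjusted p = 0.0684, 0.17 and 0.0739) or Cgas-/- HT-DNA 2 or 3 (0.189 and 0.197). The interaction was -1.44 with HT-DNA (adjusted p = 4.27e-09) and -0.37 with tau (adjusted p = 0.13). P2ry13 was lower in Cgas-/- than in Cgas+/+ cells with tau (-0.67, adjusted p = 1.68e-06) and HT-DNA (-1.75, adjusted p = 5.72e-15), and with vehicle (-0.30, adjusted p = 0.0139) a call lost without Cgas+/+ vehicle 1 or 3 (adjusted p = 0.0507 and 0.0642) or Cgas-/- vehicle 1 or 3 (0.0655 and 0.0559). Med12l, on the opposite strand over both genes, was at 0.627 to 2.5 CPM in microglia and did not pass with HT-DNA in Cgas+/+ cells (0.40, adjusted p = 0.223). It was lower in Cgas-/- than in Cgas+/+ cells with HT-DNA (-1.29, adjusted p = 0.000238), and its HT-DNA interaction of -1.40 (adjusted p = 0.00563) stood beside -1.38 for P2ry12 and -1.44 for P2ry13. The part of Med12l reads in the values of these genes was not tested.

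Gpr34 fell with both treatments in Cgas+/+ cells and with tau in Cgas-/- cells. It was at 6.82, 10.6 and 7.23 CPM in Cgas+/+ cells with vehicle, 1.58, 2.84 and 2.18 with tau, and 2.66, 2.1 and 2.57 with HT-DNA. The Cgas-/- libraries were at 5.58, 5.37 and 6.25 CPM with vehicle, 3.48, 2.93 and 2.9 with tau, and 4.45, 4.45 and 4.39 with HT-DNA. These values rest on 29 to 244 counts per library, and only tau and HT-DNA in Cgas+/+ cells overlapped among neighbouring groups.

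The log2 change of Gpr34 in Cgas+/+ cells was -1.89 ± 0.19 with tau (SE, adjusted p = 4.00e-09) and -1.75 ± 0.19 with HT-DNA (SE, adjusted p = 7.38e-09), and these treatments did not differ from each other beyond their spread (-0.14, 95% interval -0.60 to 0.32). Without Cgas the change was -0.89 ± 0.18 with tau (SE, adjusted p = 0.000507) and -0.37 with HT-DNA (adjusted p = 0.379). The interaction was 1.38 with HT-DNA (adjusted p = 0.000106) and 1.0 with tau (adjusted p = 0.0188), the latter lost without Cgas+/+ vehicle 2 (0.77, adjusted p = 0.0764), Cgas+/+ tau 1 (0.79, adjusted p = 0.0872) or Cgas+/+ tau 3 (0.99, adjusted p = 0.0514). With vehicle Cgas-/- cells had less Gpr34 (-0.52, adjusted p = 0.00989), which turned on Cgas+/+ vehicle 2 (-0.29 without it, adjusted p = 0.175), with HT-DNA they had more (0.86, adjusted p = 0.000463), and with tau the difference was 0.48 (adjusted p = 0.0548), called when scaled by library size only (0.54, adjusted p = 0.0338) and without Cgas+/+ vehicle 1 (adjusted p = 0.0468), Cgas+/+ vehicle 2 (0.0333) or Cgas+/+ tau 2 (0.72, adjusted p = 0.0127). Cask, a scaffold kinase gene that contains Gpr34 on the opposite strand, moved the other way in Cgas+/+ cells, by 0.55 with tau (adjusted p = 4.69e-08) and 1.10 with HT-DNA (adjusted p = 1.0e-14).

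Cx3cr1 rose with tau in both genotypes and was lower in Cgas-/- cells throughout. It was at 348, 363 and 366 CPM in Cgas+/+ cells with vehicle, 443, 448 and 430 with tau, and 343, 311 and 316 with HT-DNA. The Cgas-/- values were 114, 114 and 109 CPM with vehicle, 175, 184 and 187 with tau, and 108, 110 and 111 with HT-DNA. Each Cgas-/- library was below each Cgas+/+ library, and within Cgas-/- cells vehicle and HT-DNA overlapped.

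Tau raised Cx3cr1 by 0.29 ± 0.04 in Cgas+/+ cells (SE, adjusted p = 1.58e-06) and 0.70 ± 0.04 in Cgas-/- cells (SE, adjusted p = 3.25e-13), and the interaction was 0.40 (adjusted p = 4.84e-05). HT-DNA lowered it in Cgas+/+ cells (-0.15, adjusted p = 0.00332), and the HT-DNA interaction was 0.12 (adjusted p = 0.135, and 0.038 at 0.16 without Cgas+/+ HT-DNA 1). Scaled by library size only, which moved the median of all genes to -0.24 for HT-DNA in Cgas+/+ cells, Cx3cr1 was at -0.37 there and its HT-DNA interaction was called (0.30, adjusted p = 0.000261). Cx3cr1 was lower in Cgas-/- cells with vehicle (-1.68, adjusted p = 8.40e-22), tau (-1.27, adjusted p = 2.30e-19) and HT-DNA (-1.56, adjusted p = 4.45e-22). The annotated locus of Cx3cr1 overlaps Wdr48, Gorasp1 and Csrnp1 among others, and in vehicle-treated Cgas-/- cells Wdr48 (0.26) and Gorasp1 (0.28) were higher and Csrnp1 (-0.45) lower.

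Csf1r followed a like course. It was at 976, 978 and 998 CPM in Cgas+/+ cells with vehicle, 1270, 1230 and 1210 with tau, and 813, 827 and 847 with HT-DNA. Without Cgas it was at 568, 565 and 564 CPM with vehicle, 828, 909 and 882 with tau, and 539, 564 and 576 with HT-DNA. Tau libraries were the highest of each genotype, Cgas-/- cells with tau overlapped with Cgas+/+ cells with HT-DNA, and vehicle and HT-DNA overlapped in Cgas-/- cells.

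Tau raised Csf1r by 0.33 ± 0.04 in Cgas+/+ cells (SE, adjusted p = 6.64e-08) and 0.63 ± 0.04 in Cgas-/- cells (SE, adjusted p = 3.29e-13), with an interaction of 0.29 (adjusted p = 0.000833). HT-DNA lowered it in Cgas+/+ cells (-0.25, adjusted p = 4.74e-06), with an interaction of 0.23 (adjusted p = 0.00131), and these were -0.46 and 0.42 when scaled by library size only. Csf1r was lower in Cgas-/- cells with vehicle (-0.80, adjusted p = 5.45e-16), tau (-0.50, adjusted p = 9.14e-12) and HT-DNA (-0.57, adjusted p = 3.61e-13, and -0.36 when scaled by library size only). Cx3cr1 fell from a median of 36.7 per 100 Csf1r reads in Cgas+/+ vehicle libraries to 20.1 in Cgas-/- vehicle libraries, with ranges of 35.7 to 37.1 and 19.4 to 20.1.

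Tmem119 fell with both treatments in Cgas+/+ cells, and the interaction with genotype was called for both. It was at 17.5, 18 and 19.2 CPM in Cgas+/+ cells with vehicle, 12.8, 13.2 and 10.9 with tau, and 8.8, 8.83 and 9.99 with HT-DNA. The Cgas-/- libraries were at 13.3, 11.1 and 10.6 CPM with vehicle, 15.5, 12.9 and 14.1 with tau, and 12.9, 13.5 and 12 with HT-DNA. Cgas+/+ vehicle was the highest group and Cgas+/+ HT-DNA the lowest, and the 4 groups between them overlapped with their neighbours.

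The log2 change of Tmem119 in Cgas+/+ cells was -0.56 ± 0.10 with tau (SE, adjusted p = 5.06e-05) and -0.98 ± 0.10 with HT-DNA (SE, adjusted p = 5.75e-09). In Cgas-/- cells the difference with tau was 0.29 (adjusted p = 0.0524), called without Cgas-/- vehicle 1 (0.39, adjusted p = 0.0154), Cgas-/- tau 2 (0.35, adjusted p = 0.0304) or Cgas+/+ tau 3 (0.29, adjusted p = 0.047). The interaction was 0.85 with tau (adjusted p = 0.000223) and 1.13 with HT-DNA (adjusted p = 5.03e-07). Cgas-/- cells had less Tmem119 with vehicle (-0.65, adjusted p = 3.55e-06) and more with HT-DNA (0.47, adjusted p = 0.000343), and with tau the difference was 0.20 (adjusted p = 0.102, and 0.0472 at 0.27 without Cgas-/- tau 2, and 0.0358 at 0.26 when scaled by library size only).

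**Figure D3:**
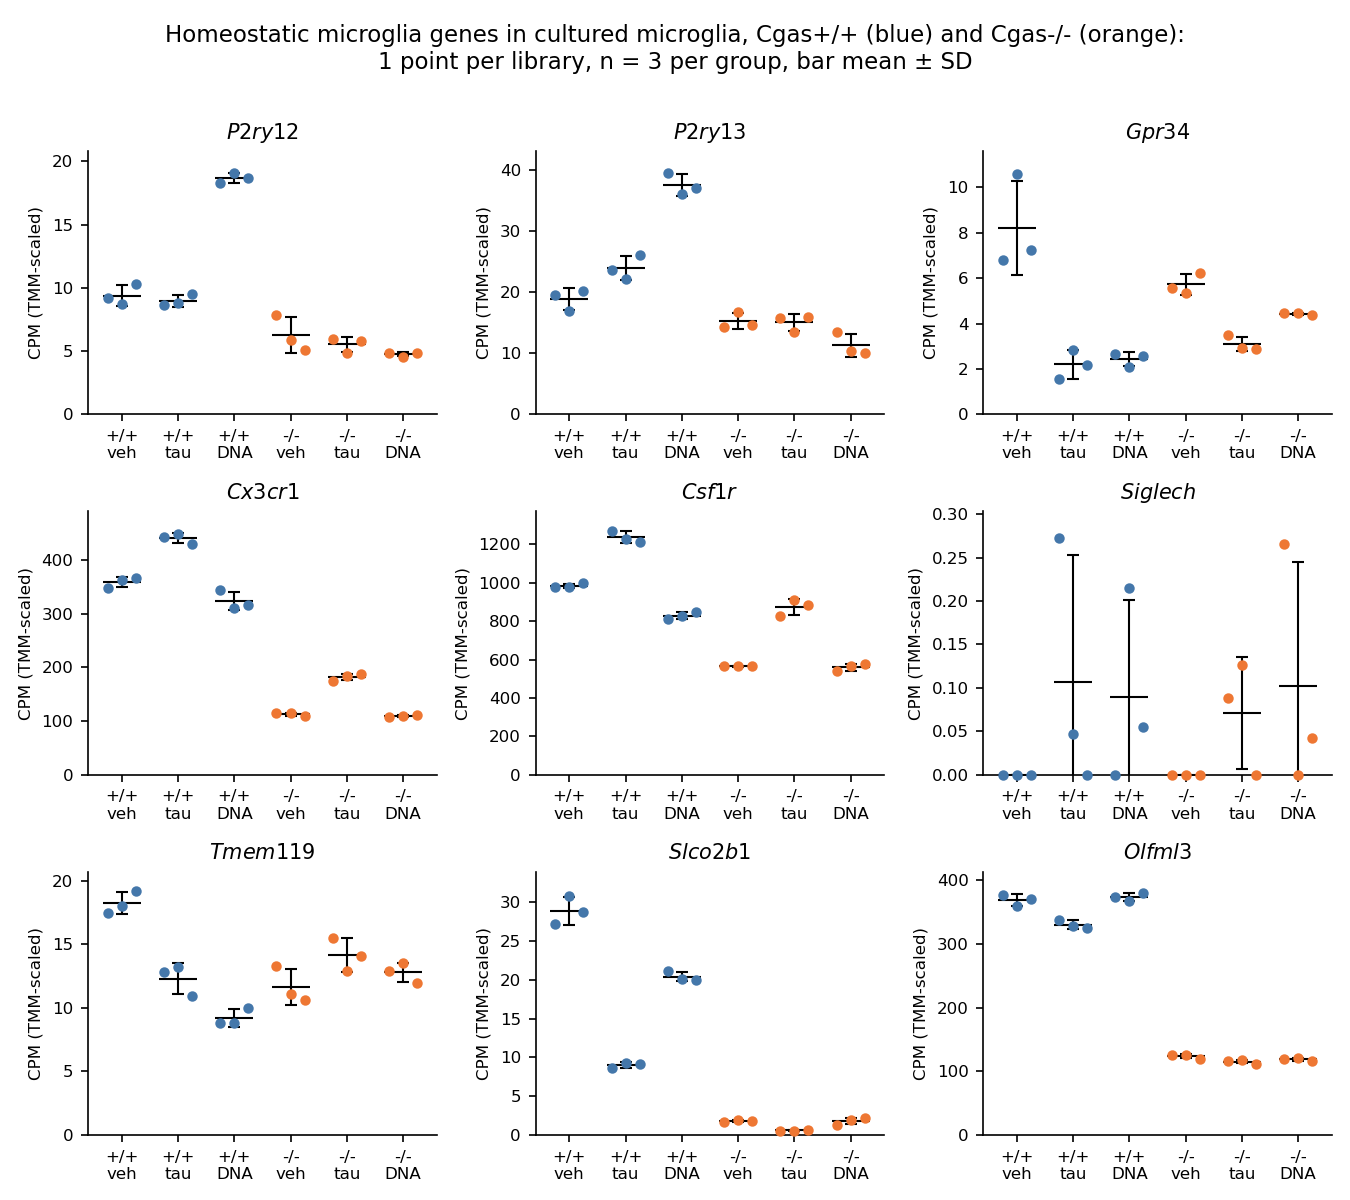
CPM (linear axes from 0) of the 9 genes in the 18 microglial libraries, 1 point per library, with the mean and SD of each group of 3, Cgas+/+ in blue and Cgas-/- in orange. P2ry12 and P2ry13 stand out with HT-DNA in Cgas+/+ cells (18.3 to 19.1 and 36 to 39.5 CPM), and each Cgas-/- library of Cx3cr1, Olfml3 and Slco2b1 lies below each Cgas+/+ library.

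Slco2b1 had the greatest difference between genotypes. It was at 27.2, 30.8 and 28.7 CPM in Cgas+/+ cells with vehicle, 8.62, 9.31 and 9.12 with tau, and 21.1, 20.1 and 20 with HT-DNA. The Cgas-/- values were 1.73, 1.93 and 1.76 CPM with vehicle, 0.573, 0.545 and 0.704 with tau, and 1.32, 1.97 and 2.13 with HT-DNA. These Cgas-/- values rest on few reads, 31 to 40 counts per library with vehicle, 13 to 18 with tau and 25 to 51 with HT-DNA. The tau group was the lowest of each genotype, every Cgas-/- library was below every Cgas+/+ library, and vehicle and HT-DNA overlapped in Cgas-/- cells.

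Cgas-/- cells had less Slco2b1 with vehicle (-4.00 ± 0.12 SE, adjusted p = 4.81e-20), tau (-3.87 ± 0.17 SE, adjusted p = 4.75e-17) and HT-DNA (-3.47 ± 0.12 SE, adjusted p = 1.38e-19). Tau lowered it in Cgas+/+ cells (-1.68 ± 0.10 SE, adjusted p = 1.21e-13) and in Cgas-/- cells (-1.56 ± 0.22 SE, adjusted p = 3.51e-06), and the interaction was 0.12 (95% interval -0.41 to 0.63, adjusted p = 0.874). HT-DNA lowered it in Cgas+/+ cells (-0.50, adjusted p = 3.15e-05). The HT-DNA interaction of 0.53 (adjusted p = 0.0416) was not called in DESeq2 (0.49, adjusted p = 0.102) and was lost in 9 of 18 fits that left out a library, Cgas+/+ vehicle 2 or 3, HT-DNA 2 or 3 and tau 1, and Cgas-/- vehicle 1 or 3 and HT-DNA 2 or 3, with the lowest value at 0.40 (adjusted p up to 0.178).

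Olfml3 was lower in Cgas-/- cells and differed little between treatments. It was at 376, 359 and 371 CPM in Cgas+/+ cells with vehicle, 338, 328 and 324 with tau, and 373, 367 and 380 with HT-DNA. Without Cgas it was at 126, 125 and 120 CPM with vehicle, 116, 117 and 112 with tau, and 119, 121 and 116 with HT-DNA. Each genotype formed its own range, tau was the lowest group of Cgas+/+ cells, and the Cgas-/- groups overlapped with their neighbours.

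Olfml3 was lower in Cgas-/- cells with vehicle (-1.58, adjusted p = 3.11e-22), tau (-1.52, adjusted p = 8.80e-22) and HT-DNA (-1.65, adjusted p = 1.43e-23). Tau lowered it in Cgas+/+ cells (-0.16, adjusted p = 0.00151), and HT-DNA gave 0.02 (95% interval -0.06 to 0.09, adjusted p = 0.718), which was -0.19 (adjusted p = 4.15e-05) when scaled by library size only. In Cgas-/- cells tau gave -0.10 (adjusted p = 0.079), called in DESeq2 (adjusted p = 0.02), when scaled by library size only (-0.15, adjusted p = 0.00538) and without Cgas+/+ tau 1 (adjusted p = 0.041) or Cgas-/- HT-DNA 1 (adjusted p = 0.0452).

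Counted over the 8 testable members, tau changed 7 in Cgas+/+ cells, 3 higher and 4 lower, beside 28.0% of all genes (15.8% higher and 12.2% lower), and the median log2 difference was -0.11 beside -0.01. HT-DNA changed 7, 2 higher and 5 lower, beside 47.4% of all genes (22.8% and 24.7%), with a median of -0.20 beside -0.03. Tau and HT-DNA, compared with each other in Cgas+/+ cells, differed for 7 members beside 34.9% of all genes, 3 higher with tau beside 17.1% and 4 lower beside 17.8%, and the comparisons share their libraries. Tau was higher for Csf1r (0.58), Cx3cr1 (0.45) and Tmem119 (0.42) and lower for Slco2b1 (-1.17), P2ry12 (-1.06), P2ry13 (-0.65) and Olfml3 (-0.18, and -0.05 with adjusted p = 0.292 when scaled by library size only).

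In Cgas-/- cells tau changed 4 members, 2 higher and 2 lower, beside 16.7% of all genes (11.2% and 5.48%), and HT-DNA lowered 1, P2ry13, beside 1.32% (1.04% higher and 0.278% lower). Cgas-/- against Cgas+/+ cells with vehicle gave 8 of 8 members lower, beside 52.0% of all genes changed (27.3% lower and 24.7% higher), with a median of -0.73 beside -0.01. With tau 6 were lower and 0 higher, beside 51.3% (26.2% and 25.2%), and with HT-DNA 6 were lower and 2 higher, beside 63.2% (30.1% and 33.1%). The difference in treatment response between genotypes was called for 4 members with tau, all above 0, beside 6.91% (3.61% above and 3.31% below), and for 6 with HT-DNA, 4 above and 2 below 0, beside 34.0% (17.4% and 16.6%).

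Fewer members were also past a log2 difference of 1, and each of these was lower in the group named first. They were Gpr34 and Slco2b1 for tau against vehicle in Cgas+/+ cells, beside 0.527% of all genes, and Gpr34 for HT-DNA against vehicle, beside 2.79%. P2ry12 and Slco2b1 passed for tau against HT-DNA, beside 1.49%, Slco2b1 for tau in Cgas-/- cells, beside 0.278%, and none for HT-DNA in Cgas-/- cells, beside 0.00731%. For Cgas-/- against Cgas+/+ cells Cx3cr1, Slco2b1 and Olfml3 passed with vehicle (7.35% of all genes) and with tau (7.41%), and P2ry12 and P2ry13 joined them with HT-DNA (11.8%).

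**Figure D4:**
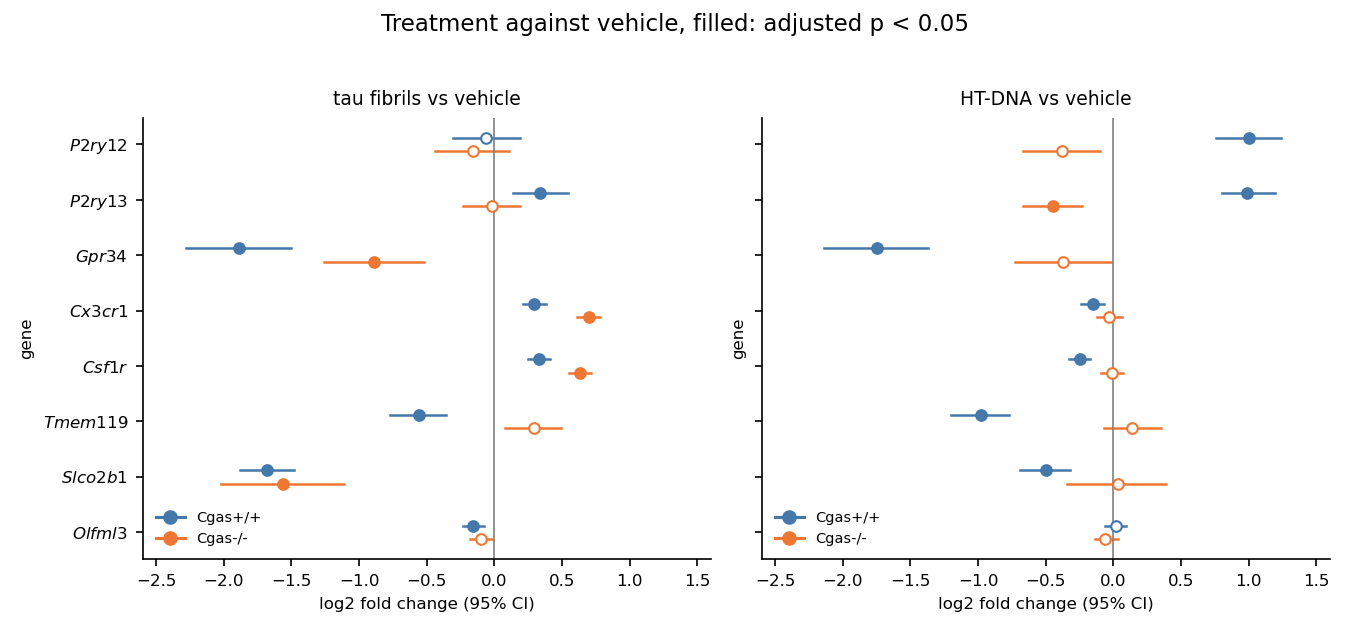
Log2 difference from vehicle of each of the 8 members with tau and with HT-DNA, by Cgas genotype, with 95% intervals and filled points for adjusted p under 0.05. P2ry12 and P2ry13 are at 1.0 and 0.99 with HT-DNA in Cgas+/+ cells and at -0.38 and -0.45 in Cgas-/- cells, and Slco2b1 falls with tau in both.

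**Figure D5:**
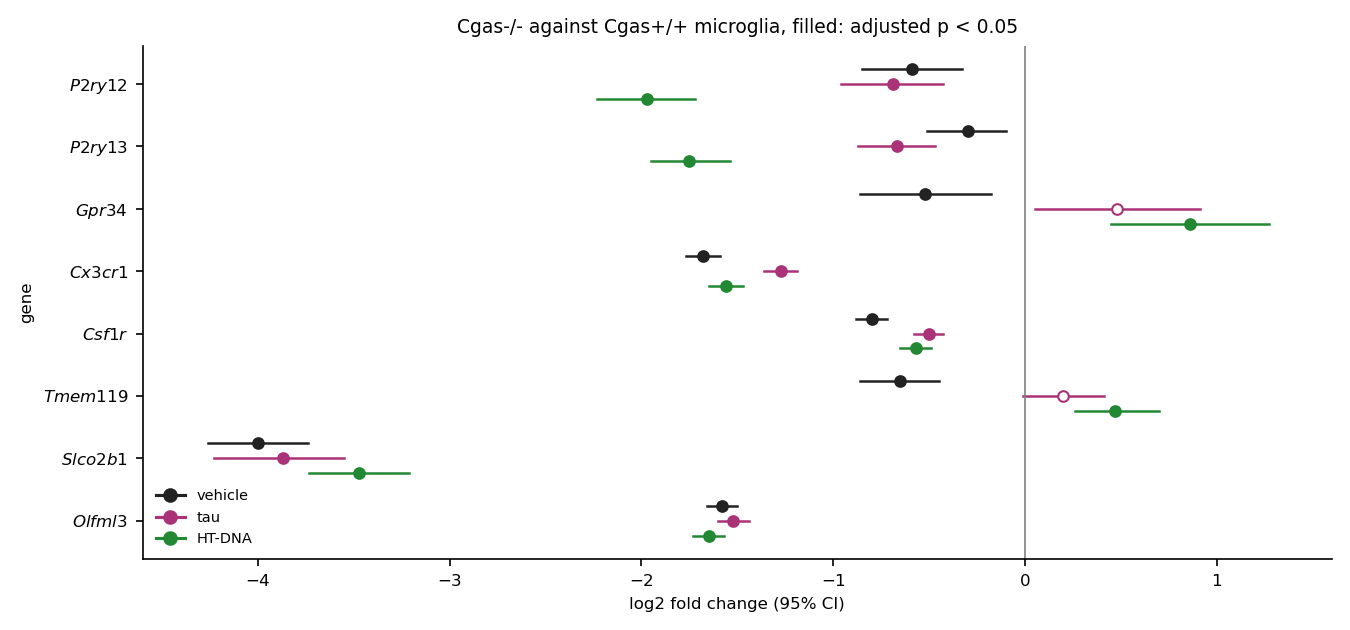
Log2 difference between Cgas-/- and Cgas+/+ microglia of each of the 8 members with vehicle, tau and HT-DNA, with 95% intervals and filled points for adjusted p under 0.05. Slco2b1 lies between -4.00 and -3.47, and Tmem119 and Gpr34 go from below 0 with vehicle to above 0 with HT-DNA.

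The lists around the set moved as follows in vehicle-treated Cgas-/- against Cgas+/+ cells. Of 18 tested other homeostatic genes 3 were higher and 11 lower (median -0.28), among them Hpgd, a prostaglandin-degrading enzyme (-1.58), while Adgrg1 was lower at 3 counts or fewer in each Cgas-/- library and is given without a fold. Of 12 general microglia and macrophage genes 2 were higher and 7 lower (median -0.42), led by Aif1 (-1.0), C1qa (-0.94) and C1qb (-0.85). Of 14 transcription factors 5 were higher and 7 lower (median -0.13), among them Maf (-1.12) and Mef2c (-0.85), and of 13 TGF-beta pathway genes 4 were higher and 6 lower (median -0.33), led by Smad6 (-1.51).

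Of 6 ligands and growth factor receptors 2 were higher and 3 lower (median -0.26), led by Csf3r (-1.31), and of 12 purinergic genes 2 were higher and 4 lower (median -0.15), with Adora2b (2.0), P2ry6 (-0.73) and P2ry14 (-0.65) leading. Of 15 genes of disease-associated microglia 8 were higher and 4 lower (median 0.15), led by Ccl6 (3.19) and Cst7 (1.65). Markers of other cells also differed between the genotypes with vehicle: the 10 monocyte and border macrophage genes summed to 415 to 434 CPM in Cgas+/+ and 213 to 216 CPM in Cgas-/- libraries, 7 oligodendrocyte genes to 124 to 132 and 71 to 76 CPM, 4 endothelial genes to 105 to 125 and 27.5 to 32.5 CPM, and 5 fibroblast genes to 2.61 to 4.26 and 0.0521 to 0.22 CPM. In the Cgas-/- vehicle libraries Mog, Mobp, Opalin, Cldn5, Pecam1, Cd163, Ly6c2, Plac8 and all 5 fibroblast genes were at 3 counts or fewer. Of these, Opalin, Cldn5, Cd163, Ly6c2 and Plac8 were so in the Cgas+/+ vehicle libraries too. Of 6 tested monocyte and border macrophage genes 1 was higher, 2 were lower and 3 were not called. The sums of the 5 oligodendrocyte precursor genes overlapped, at 514 to 538 CPM in Cgas+/+ and 492 to 544 CPM in Cgas-/- libraries. Among them Gpr17 and Olig2 were at 3 counts or fewer in the vehicle libraries of both genotypes, and Olig1 in the Cgas-/- ones. Of the 3 genes tested 1 was lower and 2 were not called. With HT-DNA in Cgas+/+ cells the endothelial sum was 378 to 388 CPM and the oligodendrocyte sum 202 to 225 CPM. The monocyte and border macrophage sum was 473 to 479 CPM there. The fibroblast sum (3.06 to 5.65 CPM) overlapped with vehicle, and the precursor sum (495 to 503 CPM) was lower. Sums of these lists thus moved with treatment, and whether they measure such cells was not tested. The part of these cells in the differences of the members was not tested.

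With treatment in Cgas+/+ cells, other homeostatic genes were 0 higher and 7 lower with tau (median -0.09), led by Hpgd (-1.55) and Rnase4 (-0.49), and 4 higher and 7 lower with HT-DNA (median -0.10), led by Rapgef5 (-1.11) and Hpgd (-1.08). General microglia and macrophage genes were 4 higher and 0 lower with tau (median 0.02) and 6 higher and 0 lower with HT-DNA (median 0.11), with Aif1 at 0.66 and 0.72. Of the purinergic genes, 4 were higher and 4 lower with tau (median 0.03) and 5 higher and 2 lower with HT-DNA (median 0.17), and P2ry14, a receptor for UDP-sugars, rose with both (1.16 and 1.75). Of the transcription factors, 5 were higher and 4 lower with tau (median 0.07) and 7 higher and 3 lower with HT-DNA (median 0.17), and Maf rose with both (0.62 and 0.68).

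The genes whose pattern was most like each member over the 18 microglial libraries were named by Pearson r of log2 CPM, as a description in which libraries share group and depth. P2ry12 went with Rin2 (0.972), Tlr8 (0.972) and Sat1 (0.971), and P2ry13 with Tlr7 (0.968), 5430427O19Rik (0.968) and Mylip (0.964). Cx3cr1 went with Fyb (0.994), Prex1 (0.986) and Uhrf1bp1 (0.982), Csf1r with Acp2 (0.98), H6pd (0.98) and Pou2f2 (0.979), and Olfml3 with Selenop (0.998), Mfge8 (0.994) and Id3 (0.993). Slco2b1 went with Epb41l2 (0.992), Fuca1 (0.988) and Gsn (0.986), Gpr34 with Gna12 (0.954), Sfxn3 (0.928) and Plin3 (0.927), and Tmem119 with Vipr1 (0.929), Kctd20 (0.917) and Rin3 (0.909). Among members, r was 0.94 for P2ry12 and P2ry13, 0.96 for Olfml3 and Slco2b1, 0.93 for Cx3cr1 and Csf1r, and 0.60 for Gpr34 and Tmem119. By likeness among the genes tested, P2ry13 ranked 50 for P2ry12 and Tmem119 ranked 753 for Gpr34. Other pairs ran against each other, the lowest being P2ry13 with Gpr34 (-0.49) and with Tmem119 (-0.46).

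Over the 13 hippocampi the likeness was of another kind. Cx3cr1 went with Csf1r (0.994), Dock2 (0.986) and Adgre1 (0.982), Csf1r with Cx3cr1 (0.994), Dock2 (0.983) and Laptm5 (0.978), and Slco2b1 with Cyth4 (0.982), Spint1 (0.975) and Csf1r (0.967). P2ry13 went with Gpr34 (0.904), Bco2 (0.888) and Pinx1 (0.873), Gpr34 with Ugp2 (0.933), Pinx1 (0.924) and Ak3 (0.92), and Siglech with Gpr34 (0.883), Hpf1 (0.882) and Mettl9 (0.854). P2ry12 went with Nudt10 (0.933) and 2010315B03Rik (0.889), Tmem119 with Zfp133-ps (0.808), Cyren (0.784) and Egr4 (0.778), and Olfml3 with BC025920 (0.89), 2610203C22Rik (0.877) and Aass (0.85).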

How the data were processed

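RNA-seq read counts of 13 hippocampi and 18 primary microglial libraries were used as deposited. The authors' tables hold whole-number counts per Ensembl gene, without normalization, 1 column per library. Per the labels, libraries were made with a QuantSeq 3′ kit, although the study's methods name other RNA and sequencing steps. The submitters' processing notes name GRCm38, edgeR and limma, and the aligner, the counting tool and its strand setting are not given in the sources used here. Levels are compared between groups rather than between genes, and genes that overlap on opposite strands may share reads.

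Groups were taken from the sample labels. Counts were analysed in R 4.3.3 with edgeR 4.0.16 (filterByExpr, TMM, glmQLFit and glmQLFTest) on all 13 hippocampi and on all 18 microglial libraries in 1 fit of 6 groups, with Benjamini-Hochberg adjustment over all genes tested and a call at adjusted p under 0.05. Counts at log2 differences beyond 0.5 in hippocampi and 1 in microglia were also made. For the mean of general microglia and macrophage genes, an exact permutation test over mice (two-sided) was used. Such an exact permutation test of 3 against 3 libraries cannot go below p = 0.1, so none is given for single genes. The scripts were tested on simulated data with known changes.

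Depth was 25953296 to 35779977 counts per hippocampus (median 28520453) and 17037459 to 25174764 per microglial library (median 21166442). No pair of libraries of 1 group agreed within sampling noise, the lowest chi-square over its degrees of freedom being 17.2 in hippocampi and 2.32 in microglia. A floor of 3 counts was used, and it covers counting error only.

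All members are named. Of each other list, up to 3 genes per comparison were named, those with the greatest log2 change among its genes that passed the test, along with genes overlapping a member and the 3 genes most correlated with each. Some genes that this rule names are not reported here. The members and lists were chosen with earlier results of these data known. Promoter windows are RefSeq, GRCm38.p6, and gene loci are GENCODE, GRCm38.

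Alternatives were DESeq2 1.42.0, RLE scaling, no filter, only the compared groups, sex or the microglia mean as a covariate, a replicate block and leaving out each library. Scaling by library size only and DESeq2 without independent filtering were added after seeing the data. Figures were drawn with matplotlib 3.10.9.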

Additional observations from a re-analysis of the deposited data

Results flagged for a closer look

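Siglech in the Ntg hippocampi had a single high value, 17.7 CPM in mouse 62, whose gap to the next value was 0.63 of the group's range, beyond Dixon's critical value for 7 values. It was the only one of 20 groups checked, and chance would give about 1 in 20.

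The response to treatment differed between Cgas-/- and Cgas+/+ microglia for several genes, by the interaction term of edgeR's quasi-likelihood test. With tau the difference was 0.85 for Tmem119, 0.40 for Cx3cr1, 1.0 for Gpr34 and 0.29 for Csf1r on the log2 scale. With HT-DNA it was -1.38 for P2ry12, -1.44 for P2ry13, 1.13 for Tmem119, 1.38 for Gpr34, 0.53 for Slco2b1 and 0.23 for Csf1r.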

How the results depend on the processing

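With DESeq2, 2 hippocampal members were called, and 1 without its independent filtering, against 0. Requiring the minimum fold as well left 2 members for tau and 1 for HT-DNA against vehicle in Cgas+/+ cells, 2 for tau against HT-DNA, 1 for tau and 0 for HT-DNA in Cgas-/- cells, and 3, 3 and 5 for Cgas-/- against Cgas+/+ cells with vehicle, tau and HT-DNA. With the microglia mean as a covariate the hippocampal log2 differences turned below 0 for P2ry13 (-0.38), Cx3cr1 (-0.19), Gpr34 (-0.44), Siglech (-0.45), Slco2b1 (-0.12), Olfml3 (-0.44) and Csf1r (-0.14). No member was called in that fit, and the share of all genes below 0 was not counted. Scaled by library size only, Olfml3 with HT-DNA was -0.19 in Cgas+/+ cells (adjusted p = 4.15e-05 in edgeR's quasi-likelihood test), its HT-DNA interaction was 0.11, and Slco2b1 with HT-DNA in Cgas-/- cells was 0.00; the cause was not tested. Over single genes, DESeq2 moved 3 results into a call and 1 out of it, RLE scaling 1 and 1, and library size 4 and 1. Olfml3 with HT-DNA in Cgas+/+ cells, called by library size after a change of sign, comes on top of these. The HT-DNA interaction of Slco2b1 left its call with DESeq2 and in edgeR at adjusted p = 0.0598 with RLE scaling, 0.132 without a filter and 0.0815 with only the compared groups. Leaving out 1 library gave 0 to 3 hippocampal members and 0 to 1 for HT-DNA in Cgas-/- cells. It moved differences that were not called across 0: Olfml3 with HT-DNA in Cgas+/+ cells (0.00 to 0.06), P2ry12 with tau in Cgas+/+ (-0.11 to 0.01) and Cgas-/- cells (-0.31 to 0.02) and its tau interaction (-0.25 to 0.08), P2ry13 with tau in Cgas-/- cells (-0.08 to 0.05), Gpr34 tau against HT-DNA (-0.37 to 0.01), Slco2b1 with HT-DNA in Cgas-/- cells (-0.10 to 0.17) and its tau interaction (0.00 to 0.20), and Tmem119 (-0.18 to 0.04) and Siglech (-0.15 to 0.15) in hippocampi. With the replicate number as a block, all 80 results kept their direction and side of the threshold, P2ry12 with HT-DNA in Cgas+/+ cells staying at 1.0. What the numbers stand for is not given in the sources used here. Once group means were taken out, same-numbered libraries of different groups correlated at -0.109 to 0.121 and others at -0.107 to 0.122. These ranges show no pairing, but with groups of 3 they cannot exclude a shared preparation. Precision is limited by 3 libraries per microglial group and, for Siglech in microglia, by depth.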
